A study of Acropora tenuis with 242 samples.

Results

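The heat response described here is that of larvae from the cross labelled DRxSB of the reef-building coral Acropora tenuis, made from gametes of the populations called DR and SB. All larval libraries carrying that cross label were taken, which gave 9 libraries of the 96 from larvae; the 146 libraries of juveniles in the series were not used. The 9 comprise 3 taken before the experiment (Pre), 3 from the control temperature at its end (Ambient) and 3 from heat stress (Hot), and those taken at the end are pools of larvae. The labels do not say which population gave the eggs, what the temperatures were or how long the exposure lasted, and their symbiont label is N/A in all larval groups. Of the 11 larval crosses, 10 were sampled at both temperatures, so 9 other crosses serve for comparison. Among them, DRxDR and SBxSB are the within-population crosses of the populations named in DRxSB.

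Acropora larvae are free-swimming and start life without the algal symbionts that feed the adult. In corals, heat is known to raise transcripts of chaperones, which refold damaged proteins, and to change those of metabolism and growth. The tables give gene models by identifiers such as Amillepora23389-RA and do not pair them with names, so no function is given to any model, and each comparison names 2 models per direction.

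The assay was tag-based RNA sequencing, which reads and counts a short piece of each transcript. The DRxSB libraries held 784401 to 1000922 counts (median 894227), and the Hot and Ambient libraries of the other 9 crosses held 680545 to 1014232. The shallowest larval library, LSxCU Pre 2, held 79712 counts. It was kept when all larval libraries were analysed together and in the Pre means of the other crosses. Levels are given as CPM, counts set to an equal library total. A model at 2 CPM rests on about 2 counts in a library. No pair of DRxSB replicate libraries agreed within counting noise, with a chi-square per degree of freedom of 1.52 to 1.92 between Hot libraries, 1.58 to 1.72 between Ambient libraries and 1.90 to 3.37 between Pre libraries. The Pre and Ambient libraries were also spread along the second principal component of all larval libraries (15.93% of the variance). Their scores were 35.4, 23.5 and 6.23 at Pre and -10.6, -14.2 and 6.89 at Ambient, and the Hot libraries lay at -22.1, -20.1 and -16.0. Whether the 3 libraries of a treatment are separate cultures is not stated, so a p-value speaks only of the spread among these libraries, which may be technical. The column names carry an index number whose values were lowest in the Ambient, higher in the Hot and highest in the Pre libraries, without overlap, so treatment and index order cannot be told apart within the cross.

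Heat changed a large part of the measured transcriptome of DRxSB larvae, in both directions. Of 11886 gene models tested, 2557 differed between Hot and Ambient (21.5%), 1312 of them higher (11%) and 1245 lower (10.5%) at Hot (edgeR quasi-likelihood test, Benjamini-Hochberg false discovery rate of 0.05). A change of at least 2-fold was seen in 436 of the risen and 424 of the fallen models, and one of at least 4-fold in 121 and 57. The models that rose held 15.55% ± 0.27 of the counts at Ambient and 25.99% ± 0.76 at Hot (SD, n = 3), and those that fell went from 24.55% ± 0.39 to 15.35% ± 0.78. These shares describe models chosen on the same libraries and were not tested. In whole larvae a change in the number of cells of a type and a change in RNA per cell cannot be told apart. Leaving out a library in turn gave 1941 to 2296 calls.

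The leading rise was that of Amillepora23389-RA. It stood at 11.6, 8.97 and 15.6 CPM in the Ambient libraries and at 503, 412 and 435 CPM in the Hot libraries. The lowest Hot library was far above the highest Ambient library, which the choice of named models required, and the Pre libraries lay between the groups at 103, 196 and 180.6 CPM. The log2 fold change between Hot and Ambient was 5.21 (SE 0.20, adjusted p = 1.38e-37, edgeR). Ambient differed from Pre by -3.71 (SE 0.23, adjusted p = 8.05e-24) and Hot from Pre by 1.495 (SE 0.14, adjusted p = 1.10e-15, edgeR). In the other 9 crosses the same model had log2 fold changes of 0.32 (BKxBK, adjusted p = 0.184, edgeR) to 6.69 (DRxDR). The rise in DRxSB exceeded the mean of the others by 1.60 (SE 0.27, adjusted p = 9.39e-05, edgeR), yet it lay inside their range.

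Amillepora03924-RA was at a few counts per library outside the heated larvae. It had 1.28, 2.24 and 1.12 CPM at Ambient, 4.33, 2.07 and 1.14 CPM at Pre, and 50.6, 42.5 and 31.9 CPM at Hot. All Hot libraries were above all others. The Ambient value rests on 4 counts in all against 105 at Hot, a rate ratio of 26.9 with an exact 95% counting interval of 10.2 to 101. The fitted log2 fold change was 4.62 (SE 0.72, adjusted p = 3.72e-07, edgeR). Its difference from the mean of the other 9 was -0.12 (adjusted p = 0.931, edgeR). With so few counts at Ambient, that does not show an equal response.

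The leading fall was that of Amillepora04321-RA. It went from 752, 846 and 783 CPM at Ambient to 31.9, 28.3 and 22.1 CPM at Hot, and had been at 460, 629 and 612 CPM at Pre. The heated libraries were low by themselves, while all Pre and Ambient libraries were at or above 460 CPM. Hot and Ambient differed by a log2 fold change of -4.84 (SE 0.14, adjusted p = 1.74e-46, edgeR), against a mean of -3.66 in the other 9 crosses, which ran from -5.91 in DRxDR to -1.51 in BKxBK. The difference from that mean was -1.18 (SE 0.17, adjusted p = 2.35e-06, edgeR). The fall in DRxSB was smaller than in DRxDR by 1.07 on the log2 scale (SE 0.26, adjusted p = 0.0154, edgeR), and its difference from SBxSB was 0.14 (SE 0.25, adjusted p = 0.897).

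Amillepora18440-RA was lower at Ambient than at Pre and lowest at Hot. It stood at 67.1, 61.1 and 75.0 CPM at Pre, at 28.2, 20.2 and 19.0 CPM at Ambient and at 2.2, 2.57 and 0 CPM at Hot. The 3 treatments did not overlap. The Hot value rests on 4 counts against 57 at Ambient, a rate ratio of 13.9 (exact 95% counting interval 5.14 to 52.7). The fitted log2 fold change was -3.68 between Hot and Ambient (SE 0.55, adjusted p = 1.66e-07) and -1.60 between Ambient and Pre (SE 0.27, adjusted p = 4.56e-06, edgeR).

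**Figure D1:**
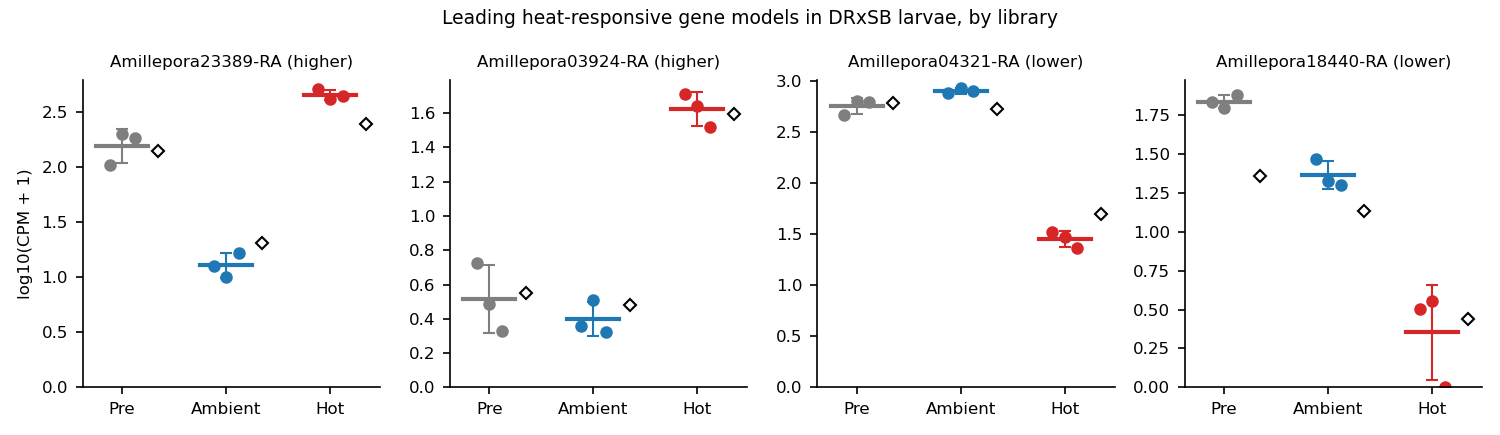
Levels of the 4 leading heat-responsive gene models in the 9 DRxSB libraries, as log10(CPM + 1) by treatment. Points are libraries, bars the mean ± SD of the 3 libraries, and open diamonds the median over the other 9 crosses. Amillepora23389-RA is at 412 to 503 CPM in the Hot libraries and at or below 15.6 CPM in the Ambient ones.

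Pre served as the starting level, and the comparisons with it share libraries with the one above. Between Pre and Ambient 1671 models differed (14.1%), 747 higher (6.28%) and 924 lower (7.77%) at Ambient, and 384 of the fallen against 204 of the risen changed at least 2-fold. The count was 1000 without Pre replicate 1 and 1074 without Ambient replicate 2. Between Pre and Hot 2646 models differed (22.3%), 1251 higher (10.5%) and 1395 lower (11.7%) at Hot, of which 470 and 674 changed at least 2-fold.

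Most of the models that rose with heat were also higher at Hot than at Pre. For the 1312 risen models the median log2 CPM was 6.22 at Pre, 5.98 at Ambient and 6.75 at Hot, and for the 1245 fallen models it was 6.15, 6.34 and 5.61. Of the risen models 749 were also called higher at Hot than at Pre and 30 lower. Of the fallen models 623 were called lower and 16 higher. All 11886 models had medians of 5.03, 5.02 and 5.00. These groups were chosen with the Hot libraries, so the counts describe them and test nothing.

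Amillepora07197-RA was far below its Pre level at Ambient and nearer to it at Hot. It stood at 174, 287 and 310 CPM at Pre, at 7.70, 17.9 and 19.0 CPM at Ambient and at 204, 139 and 179 CPM at Hot. The Ambient libraries were low and the Hot libraries overlapped those of Pre. The log2 change was -4.07 from Pre to Ambient (SE 0.26, adjusted p = 8.86e-23, edgeR). Hot stood above Ambient by 3.51 (SE 0.27, adjusted p = 1.96e-18) and differed from Pre by -0.56 (SE 0.18, adjusted p = 0.0142, edgeR).

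Amillepora28035-RA fell between Pre and Ambient as well, but its Pre libraries were uneven. They held 162, 74.5 and 13.6 CPM, against 2.57, 5.60 and 3.35 CPM at Ambient and 6.60, 0 and 2.45 CPM at Hot. The log2 change from Pre to Ambient was -4.38 (SE 0.69, adjusted p = 1.50e-06, edgeR), and -3.46 to -4.87 when a library was left out. The mean Pre level in the other 9 crosses ran from 0 (LSxCU) to 47.0 CPM (SBxBK), below the DRxSB mean of 83.5 ± 74.8 CPM (SD, n = 3).

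The leading rises from Pre to Ambient were smaller. Amillepora03548-RA went from 3.25, 6.21 and 1.14 CPM to 25.7, 29.1 and 15.6 CPM, with no overlap, and to 8.80, 23.2 and 18.4 CPM at Hot (log2 change from Pre to Ambient 2.65, SE 0.45, adjusted p = 4.48e-06, edgeR). Amillepora25483-RA went from 1.08, 3.10 and 1.14 CPM to 10.3, 13.5 and 19.0 CPM and stood at 0, 7.72 and 4.90 CPM at Hot. Its log2 change from Pre to Ambient was 2.89 (SE 0.68, adjusted p = 0.00123, edgeR), on 5 counts at Pre and 37 at Ambient.

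Against Pre, heated larvae gained most in Amillepora28303-RA and Amillepora15459-RA. The first had 3.25, 0 and 6.81 CPM at Pre and 180.5, 145.5 and 257.4 CPM at Hot, a log2 change of 5.84 (SE 0.45, adjusted p = 7.54e-19, edgeR). The second had 7.58, 1.03 and 0 CPM at Pre and 174, 194 and 148 CPM at Hot, a change of 5.83 (SE 0.49, adjusted p = 4.02e-17). Their Ambient libraries were also low, at 2.57 to 16.8 CPM and 5.13 to 15.7 CPM, so the Hot libraries were high against both other treatments. The leading loss besides Amillepora18440-RA was that of Amillepora14130-RA, from 576, 227 and 18.2 CPM at Pre to 5.50, 2.57 and 8.58 CPM at Hot (log2 change -5.58, SE 0.82, adjusted p = 5.98e-08). Its Pre libraries differed from each other more than its lowest Pre library differed from Hot, and its Ambient libraries held 10.3, 10.1 and 39.1 CPM.

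The question that follows is what sets DRxSB apart from the other 9 crosses. Most of its response was shared. In a comparison with no DRxSB library, the mean of Hot minus Ambient over the other 9 crosses was called higher for 3450 models and lower for 3678. In DRxSB 87.16% of the 3450 had a positive log2 fold change and 88.12% of the 3678 a negative one, against 47.8% and 52.2% of all models tested. Of the 3450, 1210 were called higher in DRxSB, which is 35.07% of that list and 92.23% of the DRxSB rises, and 5 were called lower. Of the 3678, 1146 were called lower in DRxSB, 31.16% of the list and 92.05% of the DRxSB falls, and 6 were called higher.

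The shared response had a slightly smaller size in DRxSB for the strongest heat genes. Among the 531 models that rose at least 2-fold in the other 9 crosses, the median log2 fold change was 1.33 in DRxSB and 1.56 in the others, and 326 were called higher in DRxSB (61.39%, against 11% of all models tested). Among the 591 that fell at least 2-fold it was -1.04 against -1.38, and 327 were called lower (55.33%, against 10.5% of all models). Over all models tested the DRxSB median was -0.03. The lists were chosen on the other crosses, which by itself favours larger values there, and the slopes that follow were taken the same way for each of the 10 crosses. Across the 7128 models called in the others a line through the DRxSB log2 fold changes on the mean of the others had a slope of 0.78, where 1 would be an equal response, and r was 0.84 (across gene models, which are not independent replicates). The slope was the second lowest of 10, after 0.60 in CUxBK and next to 0.79 in LSxCU, and the highest was 1.22 in SBxSB. Measured on log2 CPM instead of fitted fold changes, the single Hot libraries of DRxSB gave slopes of 0.75, 0.92 and 0.86. That range reaches beyond the mean of LSxLS (0.90). On this measure the DRxSB mean was 0.84, above both CUxBK (0.61) and LSxCU (0.82), so its fitted rank did not hold. The order of neighbouring crosses is thus not resolved by the libraries. With 2557 calls DRxSB also had the second fewest heat-responsive models of 10 crosses, between 2328 in LSxCU and 2653 in CUxCU.

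**Figure D2:**
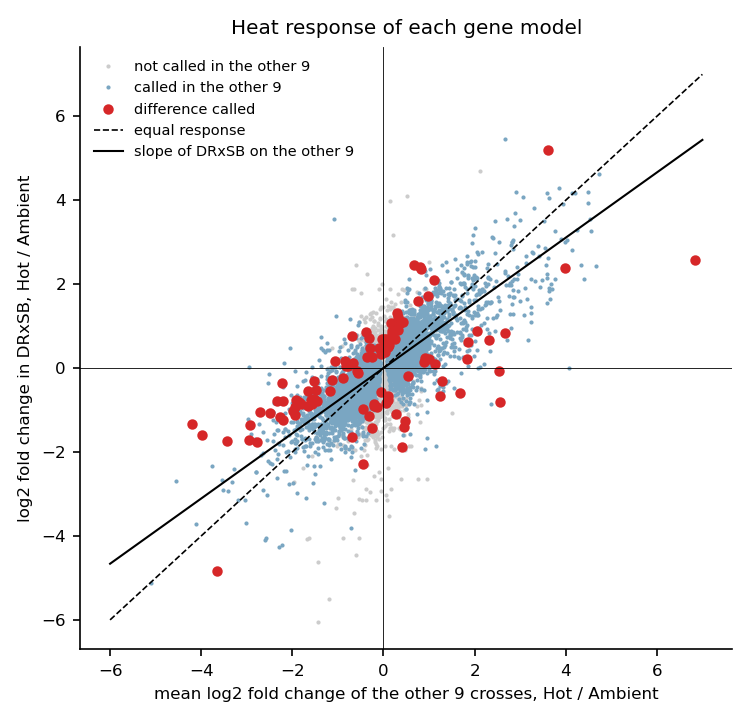
Log2 fold change between Hot and Ambient of each of 11886 gene models, in DRxSB (vertical) against the mean of the other 9 crosses (horizontal). The dashed line marks an equal response, the solid line the slope of 0.78, and red points the 105 models whose difference was called.

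**Figure D3:**
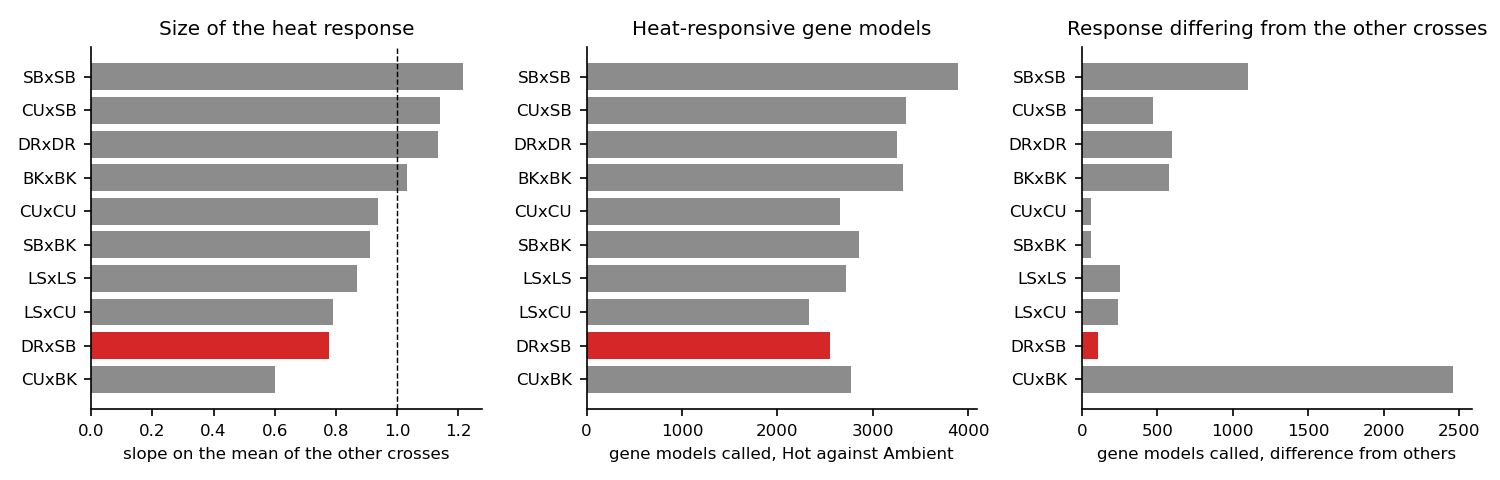
Slope on the mean of the other crosses (left), gene models called between Hot and Ambient (middle) and gene models whose response differed from the mean of the others (right), for the 10 crosses with DRxSB in red. DRxSB has a slope of 0.78, 2557 heat calls and 105 differences.

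In the levels of these lists, DRxSB stood lowest at Hot and in the middle of the crosses at Ambient and Pre. The mean log2 CPM of the models risen in the other 9 crosses minus that of the models fallen there was 0.33, 0.53 and 0.47 in the Hot libraries of DRxSB. Their mean, 0.44 ± 0.10 (SD, n = 3), was the lowest of 10 crosses, followed by LSxLS at 0.51 ± 0.02, and the groups overlap. The highest was CUxBK at 0.82 ± 0.02. At Ambient DRxSB stood at -0.50 ± 0.07, rank 5 of 10 from the lowest, and at Pre at -0.35 ± 0.13, rank 6. The lists were chosen on the other crosses, whose own levels are not independent of that choice, so the order is a description.

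**Figure D4:**
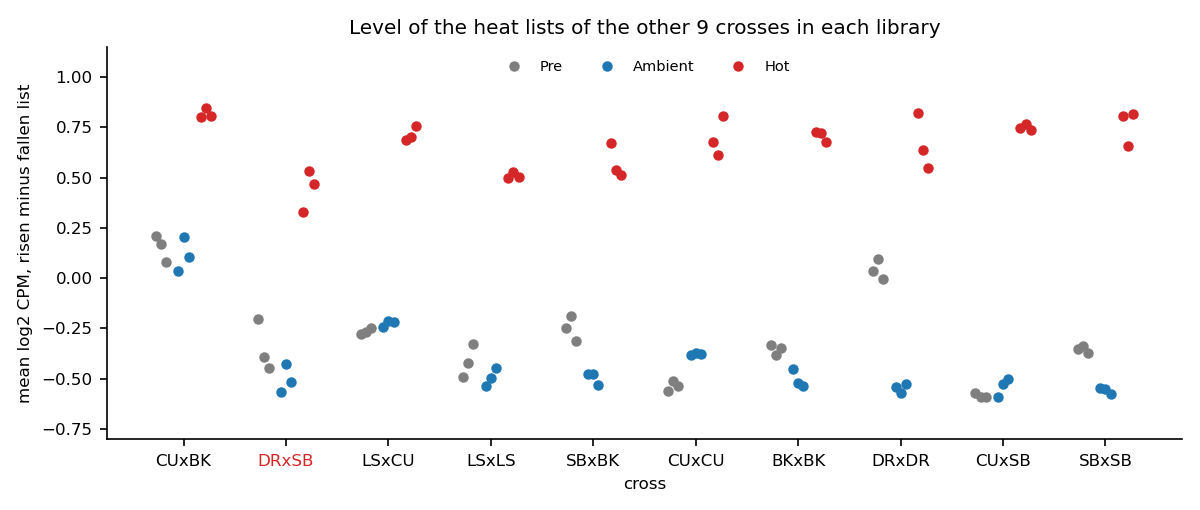
Mean log2 CPM of the models risen minus that of the models fallen in the other 9 crosses, for each library of the 10 crosses by treatment, ordered by slope. The Hot libraries of DRxSB lie at 0.33 to 0.53, overlapping those of LSxLS, and its Ambient libraries lie near -0.50.

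Tested model by model, the response of DRxSB differed from the mean of the other 9 crosses for 105 models (0.883%), 71 with a higher (0.597%) and 34 with a lower value (0.286%) in DRxSB, and 1315 models had an unadjusted p under 0.05 (edgeR). The same contrast gave 58 in SBxBK and 63 in CUxCU, the only crosses below DRxSB, and 2.01% (LSxCU) to 20.7% (CUxBK) of the models in the others. The count leaned on single libraries. It was 38 without Hot replicate 1, 42 without Hot replicate 3, 40 without Ambient replicate 2 and 64 without Ambient replicate 3. In 91 of the 105 the DRxSB log2 fold change lay outside the range of the other 9, but the contrast itself favours such models. Over all models DRxSB was the highest or lowest cross for 14.81%, within the 13.27% (CUxCU) to 36.57% (CUxBK) of the other crosses.

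Set against the variation among crosses, no model was called. With the counts of a cross and treatment summed, so that the spread was that of the heat response between crosses, 0 of 11832 models were called for DRxSB by edgeR's quasi-likelihood test and 0 by DESeq2, and 302 had an unadjusted p under 0.05. The 302 are fewer than evenly spread p-values would give, so 0 calls do not show a response like that of the other crosses. Without the filter on low counts 4 were called. The same test called 19 models for CUxBK and 0 for each of the other 8 crosses.

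The largest class among the 105 was a weaker fall. In 32 models the log2 fold change was negative in both DRxSB and the others, with a median of -0.84 in DRxSB and -1.93 in the others, and 23 of the 32 were called as falls in DRxSB. In 11 models the value was positive in both and smaller in DRxSB (median 0.63 against 1.86), and 3 of them were called as rises in DRxSB. A stronger response was seen in 25 rises (1.04 against 0.31) and 10 falls (-1.06 against -0.28), all 35 of them called in DRxSB. The direction was opposite in 27 models, of which 14 had a positive value in DRxSB (median 0.30 against -0.37) and 13 a negative one (-0.75 against 0.48), with 7 of each called in DRxSB. Of all models tested, 11% were called as rises and 10.5% as falls in DRxSB. Choosing models with a called difference and the larger value in DRxSB by itself favours a call there. For 74 of the 105 the level at Hot was called different from the mean of the other 9, for 48 the level at Ambient, for 20 both and for 3 neither, while 9.17% of all models tested were called at Hot and 6.09% at Ambient. Choosing models by the difference between Hot and Ambient by itself favours such calls. At Pre the level was called for 43 of the 105 and for 10.7% of all models.

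Of the 591 models that fell at least 2-fold in the other 9 crosses, 30 had a higher and 1 a lower log2 fold change in DRxSB by the test of the difference. Of the 531 that rose at least 2-fold there, 13 had a lower and 2 a higher value. Over all models tested 0.597% were called higher and 0.286% lower. Choosing the lists by a large mean in the other crosses by itself favours differences in these directions, so the counts are a description. Of the 30 with a higher value among the 591, 23 were called as falls in DRxSB. Of the whole 591 it was 55.33%, and of all models tested 10.5%. Among the 30, Amillepora22180-RA, named here after its value was seen, had a positive log2 fold change of 0.16. The 30 had a median log2 fold change of -0.85 in DRxSB, -1.94 in the mean of the others, -2.44 in DRxDR, -2.32 in SBxSB and -1.68 in LSxLS, the cross nearest to DRxSB. Their median log2 CPM was 6.17, 5.82 and 5.91 in the Hot libraries of DRxSB and 4.81 in the other 9 crosses. It was 7.35, 7.0 and 7.24 against 6.69 at Ambient and 7.61, 7.49 and 7.70 against 6.75 at Pre. All 9 DRxSB libraries were above the value of the other 9 crosses at the same treatment, by most at Hot. The level was called higher than the mean of the other 9 for 29 of the 30 at Hot, 14 at Ambient and 20 at Pre, and for 6.35%, 4.23% and 8.1% of all models tested. The 30 were chosen by the same contrast, so their values describe them. Without Hot replicate 1 the difference was called for 6 of them, without Ambient replicate 2 for 13, without Hot replicate 3 or Ambient replicate 3 for 20 each, and for 25 and 27 without the remaining libraries. Its median was 0.93 to 1.17 on the log2 scale, and all 30 had a positive difference in every such fit. These fits share most of the libraries on which the 30 were chosen, which by itself favours that sign.

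Amillepora12533-RA was the leading case. In DRxSB it stood at 50.9, 59.0 and 67.0 CPM at Pre, at 46.2, 47.1 and 59.1 CPM at Ambient and at 26.4, 9.01 and 24.5 CPM at Hot. All Hot libraries were below all Ambient libraries. In the other crosses the mean at Hot ran from 0.43 CPM (SBxSB) to 6.86 CPM (LSxLS), below each DRxSB Hot library, while at Ambient it ran from 26.2 to 49.1 CPM. The log2 fold change was -1.32 in DRxSB (SE 0.31, adjusted p = 0.000721) and -4.21 in the mean of the others, a difference of 2.89 (SE 0.42, adjusted p = 3.57e-06, edgeR). The value was negative in all 10 crosses, from -2.42 (LSxLS) to -6.06 (SBxSB) in the other 9, and folds of crosses with few counts at Hot depend on the prior count. The difference was 3.03 from DRxDR (adjusted p = 0.0140) and 4.74 from SBxSB (adjusted p = 0.000913). Against the spread of the crosses its unadjusted p was 0.000414, with an adjusted p of 1.

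Amillepora19085-RA behaved alike at a higher level. It had 234.9, 214.2 and 205.6 CPM at Pre, 245.2, 162.5 and 216.5 CPM at Ambient and 94.6, 38.6 and 69.9 CPM at Hot. The Hot libraries were below the rest, yet above the 3.19 (CUxCU) to 26.2 CPM (LSxLS) of the other crosses at Hot. The log2 fold change was -1.59 (SE 0.23, adjusted p = 6.11e-08) against -3.98 in the mean of the others, a difference of 2.38 (SE 0.29, adjusted p = 3.50e-08, edgeR). The difference was 2.2 from DRxDR (adjusted p = 0.00242) and 2.19 from SBxSB (adjusted p = 0.00262). The level was also above the mean of the others without heat, by 1.01 at Pre (SE 0.15, adjusted p = 1.68e-07) and by 0.59 at Ambient (SE 0.15, adjusted p = 0.00640), and by 2.98 at Hot (SE 0.26, adjusted p = 6.66e-16). Both leading weaker falls kept their call under all 23 alternatives tried.

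The leading differences in the other direction each rested on 1 Ambient library. Amillepora13086-RA rose in DRxSB from 3.85, 75.1 and 1.12 CPM at Ambient to 172, 198 and 121 CPM at Hot. Ambient replicate 2 was high by itself, and the mean of the other crosses at Ambient ran from 0.695 to 14.4 CPM. Its log2 fold change was 2.57 in DRxSB and 6.84 in the mean of the others, a difference of -4.27 (SE 0.55, adjusted p = 8.33e-08, edgeR). Without Ambient replicate 2 the difference was -0.83 with an adjusted p of 0.898, and over the 23 alternatives the adjusted p ran from 9.27e-42 to that value.

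Amillepora04869-RA had 10.3, 23.5 and 209 CPM at Ambient and 20.9, 47.6 and 74.8 CPM at Hot, so the groups overlapped. Its Pre libraries held 1304, 679 and 21.6 CPM. The log2 fold change between Hot and Ambient was -0.81 (SE 0.81, adjusted p = 0.533) against 2.56 in the mean of the others, a difference of -3.38 (SE 0.90, adjusted p = 0.0406, edgeR). Without Ambient replicate 3 it was -1.12 with an adjusted p of 0.859, and the call was lost under 10 of 23 alternatives. The next value in order was that of LSxCU, at -0.75.

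**Figure D5:**
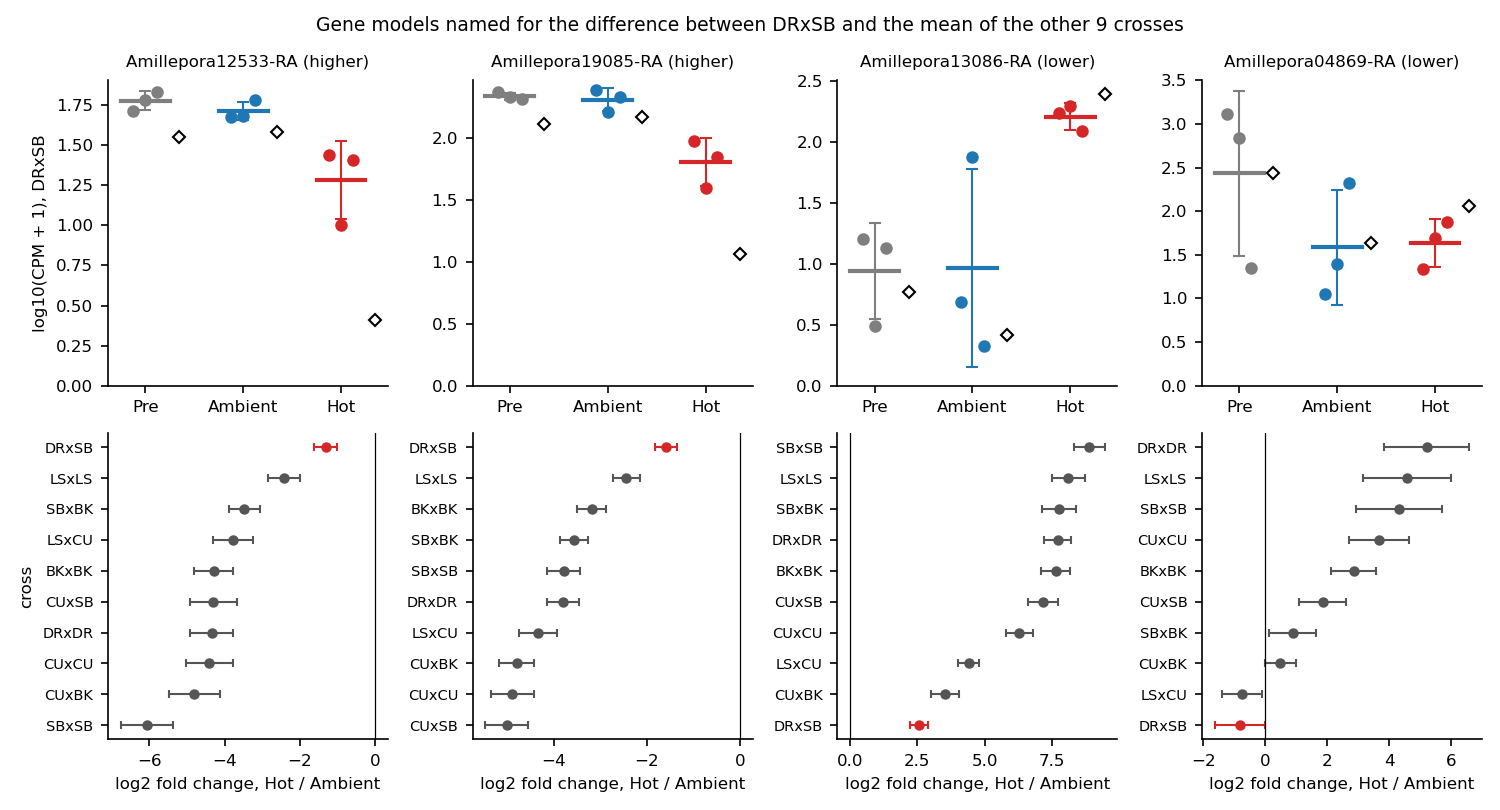
The 2 gene models per direction named for the difference between the heat response of DRxSB and the mean of the other 9 crosses. The upper panels show log10(CPM + 1) in the DRxSB libraries (points, with mean ± SD of 3 libraries) and the median of the other 9 crosses (open diamonds), and the lower panels the log2 fold change between Hot and Ambient in each cross ± SE, with DRxSB in red. Amillepora12533-RA and Amillepora19085-RA fell least in DRxSB, at -1.32 and -1.59, and the single high Ambient libraries of Amillepora13086-RA (75.1 CPM) and Amillepora04869-RA (209 CPM) are seen in the upper panels.

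Between Hot and Ambient, 190 models were called in DRxSB and not in the mean of the other 9 crosses. Of these 190, 96 were higher and 94 lower at Hot. Their median absolute log2 fold change was 0.70 in DRxSB and 0.09 in the others, and 158 had the same sign in both. The difference itself was called for 13 of the 190, which are among the 105 above, and for 0.883% of all models tested. Choosing models called in DRxSB and not in the others by itself favours such a call. For the remaining models it is not shown that the response differed.

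Set against the within-population crosses, the DRxSB response differed from that of DRxDR in 180 models (1.51%), 104 higher (0.875%) and 76 lower (0.639%) in DRxSB, with 121 of them at least 2-fold. The count was 113 without Ambient replicate 2 of DRxSB and 107 without Hot replicate 1 of DRxDR. It differed from that of SBxSB in 2.11% of models, 125 higher (1.05%) and 126 lower (1.06%), with 165 at least 2-fold. That count was 128 without Hot replicate 1 and 160 without Ambient replicate 2 of DRxSB, and 133 without Hot replicate 1 of SBxSB. Both comparisons share the DRxSB libraries. With 1 within-population cross of each, the family and the population it comes from cannot be told apart.

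The levels of DRxSB were called different from those of the other crosses in more models than its heat response was. A level rests on the DRxSB libraries of a single treatment, and the heat response on those of Hot and Ambient. The tests thus differ in precision, and their counts do not compare like with like. Against the mean of the other 9, the level was called for 1271 models at Pre (10.7%), of which 963 were higher (8.1%) and 308 lower (2.59%). It was called for 724 at Ambient (6.09%), 503 of them higher (4.23%) and the others lower (1.86%), and for 1090 at Hot (9.17%), 755 of them higher (6.35%) and 335 lower (2.82%). The higher calls made up 75.77%, 69.48% and 69.27%. Each of the other 9 crosses, set against the mean of the rest, also had more higher than lower calls, with 52.15% to 75.03% higher at Pre, 53.34% to 76.27% at Ambient and 52.02% to 74.45% at Hot. The number of calls in DRxSB was at rank 3 of 10 from the lowest at Pre, rank 2 at Ambient and rank 5 at Hot. The counts fell to 700 without Pre replicate 1, 840 without Pre replicate 2 and 829 without Pre replicate 3. They fell to 356, 394 and 366 without Ambient replicates 1, 2 and 3, and to 421 and 622 without Hot replicates 1 and 3.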

How the data were processed

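Total RNA of larval pools was made into libraries by a tag-based protocol (tag-seq), per the labels. The authors deposited raw counts per gene model and library, whole numbers with unequal totals, and the 96 larval columns were used; the juvenile table is not used here. The submitters' processing notes name Bowtie2 2.2.9. How reads were counted, against which reference and whether duplicates were removed is not given in the sources used here; a model can hold reads of near-identical copies. Columns were mapped to samples by the titles in their names, and groups came from the labels.

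Of 25142 gene models, 11886 passed filterByExpr over the 32 combinations of cross and treatment. All 96 larval libraries were fitted together with edgeR 4.0.16 in R 4.3.3 (TMM, glmQLFit, glmQLFTest), with 1 term per combination and a Benjamini-Hochberg false discovery rate of 0.05. Each SE is the log2 fold change divided by the square root of F, and can be unreliable for models with few counts in a group. CPM values use TMM-scaled totals and log2 CPM a prior count of 2. A second fit used counts summed per cross and treatment. Counting intervals cover counting error only. The scripts were tested on simulated data.

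The named models are the 2 rising and 2 falling ones with the largest fitted change per comparison, among called models whose mean log2 CPM reached 3 and with groups that do not overlap or, for the difference between crosses, a DRxSB value outside the range of the other 9. The cross, the lists and the alternatives were chosen with earlier results of these data known. Alternatives were DESeq2 1.42.0, its size factors, no low-count filter, a stricter threshold of 0.01, a replicate block, thinning, other sets of libraries, and leaving out each library or cross.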

Additional observations from a re-analysis of the deposited data

Results flagged for a closer look

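Tests of the difference in heat response called 0.883% of gene models between DRxSB and the mean of the other 9 crosses, 1.51% between DRxSB and DRxDR and 2.11% between DRxSB and SBxSB (edgeR quasi-likelihood test). The named models among the first had differences of 2.89 for Amillepora12533-RA, 2.38 for Amillepora19085-RA, -4.27 for Amillepora13086-RA and -3.38 for Amillepora04869-RA on the log2 scale, and the last 2 lose their call without 1 Ambient library each.

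Of 12 sets of 10 crosses examined for a value far from the rest, 2 had a gap past Dixon's critical value. Chance gives about 1 in 20 for unselected, independent sets. These sets share libraries and include models named for their heat response, so that rate does not hold here. At Ambient the level of the risen minus the fallen list was highest in CUxBK, with a gap of 0.505 of the range to the next cross. The log2 fold change of Amillepora18440-RA between Hot and Ambient was lowest in SBxSB, with a gap of 0.47 of the range, and the SBxSB Hot libraries of that model were all at 0, so its fitted value depends on the prior count. DRxSB itself was in neither place.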

How the results depend on the processing

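Of the checks on named models under the alternatives, 0 reversed, 235 kept their side of the threshold and 11 lost the call, 10 for Amillepora04869-RA and 1 for Amillepora13086-RA. Counts of calls are given here as percentages of the models tested. At a false discovery rate of 0.01 they were 13.6% for Hot against Ambient, 8.06% for Ambient against Pre, 0.278% for the difference from the other 9 crosses, 0.454% from DRxDR, 0.841% from SBxSB, and 2.89%, 4.46% and 5.66% for the level at Ambient, Hot and Pre. Without the low-count filter 25142 models were tested, and the difference was called for 212 (0.843%) against the other 9 crosses, 303 (1.21%) against DRxDR and 4 (0.0163%) against the spread of crosses. Thinning to 680545 counts gave 70 models for the difference from the other 9. Without the shallowest larval library, LSxCU Pre 2, the DRxSB level at Pre was called for 1225 models (10.06%). Leaving out 1 library in turn gave 8.14% to 12.5% for Ambient against Pre, 0.309% to 0.822% for the difference from the other 9 crosses, 0.872% to 1.51% from DRxDR, 1.04% to 2.18% from SBxSB, and 2.898% to 3.21%, 3.43% to 6.37% and 5.70% to 6.84% for the level at Ambient, Hot and Pre. The cause of these shifts was not tested. The replicate block gave 20.5% for Hot against Ambient and 0.740% for the difference from the other 9 crosses. It gave 2.24%, 4.75% and 5.96% for the level at Ambient, Hot and Pre. With that block a level refers to replicate 1 of each cross, so these 3 percentages do not compare with those of the main fit. Same-numbered libraries did not deviate together (r of -0.208 to 0.068 over 9 pairs of DRxSB libraries, 0 above 0.1), so the numbers are not taken to pair the libraries. The slope on the other crosses stayed at 0.74 to 0.84. Depth limits low models: at Hot, Amillepora18440-RA rests on 4 counts.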
